A study of Homo sapiens with 6 samples.

Results

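The 53 mitosis and cytokinesis genes described here were chosen by name for their function. They are rows of a gene count table from RNA-Seq libraries labelled as the lung adenocarcinoma line A549. They span the cyclins and kinases of mitotic entry, the spindle checkpoint, the kinetochore, the chromosomal passenger complex, the mitotic kinesins, spindle assembly, cytokinesis, chromosome structure and 2 transcription factors. All 53 were among the 40173 rows of the table, and all 53 were among the 15250 genes counted well enough to be tested. Cells were transfected with a small interfering RNA (siRNA) against the long noncoding RNA FAM83H-AS1 (silenced, n = 3) or with a negative control (control, n = 3), and RNA was collected on the following day. Both groups were transfected, no untransfected cells were sequenced, and which siRNA sequence was used is not given in the sources used here. The sources do not say whether the 3 libraries of a group came from separate cultures, so the p-values measure the spread between these libraries, which may be technical.

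Mitosis begins when cyclin B and its kinase CDK1 become active, and it ends when the anaphase-promoting complex (APC/C) marks the cyclins and securin for destruction and the sister chromatids part. Most genes of this program are transcribed in late S phase and G2, and their transcripts fall again after division. Their summed level is widely read as a measure of how many cells in a culture are dividing. In bulk RNA, fewer cells in G2 and mitosis and less mitotic RNA per cell cannot be told apart.

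Libraries held between 9738291 and 17742643 counts. Counts of FAM83H-AS1 itself were 141, 185 and 292 in control and 47, 48 and 75 after silencing, and it fell by 1.70 on the log2 scale (adjusted p = 7.99e-05, edgeR). Of the genes looked up as markers of A549 and epithelial cells, KRT8, KRT18, AKR1C1 and NQO1 were well counted. ALDH1A1 had 0 to 2 counts a library and AKR1B10 had 9 to 28, both of which A549 cells usually express strongly. CDKN2A, a gene that A549 cells lack and that was looked up after its values were seen, had 521 to 955 counts a library. EPCAM and CDH1, from the same list as KRT8 and KRT18, had only 32 to 59 and 8 to 19 counts a library. Of markers of other cell types, PTPRC, CD3E, PECAM1, ACTA2 and GFAP had at most 8 counts a library, CDH5 had 20 to 75 and COL1A1 had 250 to 502. The markers thus go against the label in part, and the cells are called the libraries labelled A549. Control replicate 3 stood apart, with 3.22% of its counts on the ribosomal pseudogene RNA5-8SP6 against 0.241% to 0.448% in the other 5.

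The promoters of these genes are shown first because mitotic genes are known for a short shared element, the cell cycle genes homology region (CHR). Through it the DREAM and MuvB complexes hold the genes silent in resting cells and turn them on in G2. RefSeq promoter windows (GRCh38.p14, 250 bases before to 50 bases after a transcript start) were found for 45 of the 53 members. The letters TTTGAA or TTCGAA, searched on both strands, lay in the windows of 34 of these 45 members (75.6%). Of all 27305 genes with a window, 19.5% held them, and of the 9513 tested ones 15.1%. Of 91 mitotic genes outside the members (the other mitotic genes), 52.7% held them, and of 47 DNA replication and G1/S genes 4.26%. The CCAAT letters, the core of the element bound by NF-Y, were searched in the same windows. They were held by 37 members (82.2%) against 39.7% of all genes. The share was 43.3% of the tested genes, 53.8% of the other mitotic genes and 55.3% of the DNA replication and G1/S genes. Both motifs were present in 30 members (66.7%) and in 7.85% of all genes. Tested genes held both in 6.41%, other mitotic genes in 27.5% and DNA replication and G1/S genes in 4.26%. Matches of the 2 motifs can overlap by a few letters, and a gene with several transcript starts was counted once if any window held a match. The stretches below belong to members whose values are given in full, and capitals mark the CHR letters on the plus strand, which is the coding strand of all 5 genes.
PLK1 (chr16:23678848-23678877): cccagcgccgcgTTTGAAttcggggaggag
CDCA8 (chr1:37692481-37692510): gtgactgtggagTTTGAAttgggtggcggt
CENPA (chr2:26786026-26786055): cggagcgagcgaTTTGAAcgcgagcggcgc
CENPF (chr1:214603215-214603244): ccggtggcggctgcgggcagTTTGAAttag
ANLN (chr7:36389824-36389853): tcggcgctgaaaTTCAAATTTGAAcggctg
In PLK1, CDCA8 and CENPA the element began 29, 23 and 18 bases before the RefSeq transcript start. In CENPF it began at position 41, counting the start base as 1. ANLN carried a pair of matches in opposite orientation, 26 and 20 bases before the start. In PLK1, CDCA8, CENPA and ANLN this RefSeq start lies inside the GENCODE 29 gene span given below, and not at its first base. The window of MYBL2 held neither motif. A match is a run of letters and not a measured binding site.

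**Figure D1:**
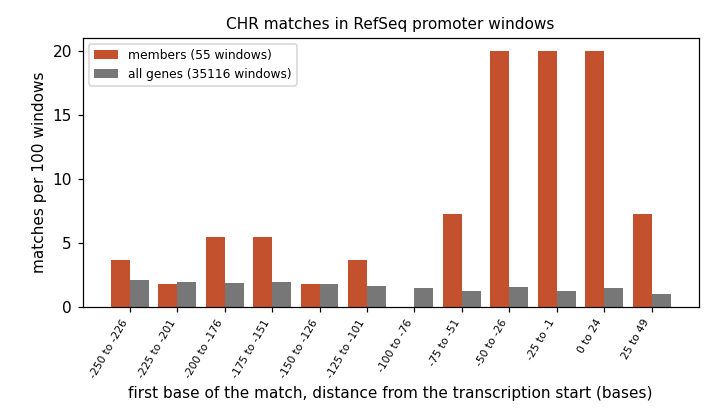
Position of CHR matches (TTTGAA or TTCGAA, either strand) relative to the transcript start (horizontal axis, bases), as matches per 100 windows (vertical axis), for the windows of members and for all windows. Of 53 matches in member windows, 37 (69.8%) lay within 50 bases of the start, against 27.3% of 6754 matches in all windows. Windows of 1 gene can overlap, so a match can be counted more than once.

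Most of the program was not called different after silencing. Of the 53 members, 5 passed an adjusted p under 0.05 (9.43%), against 17% of all tested genes. ANLN, MYBL2 and CENPF rose, where 8.75% of all tested genes were called higher, and PLK1 and CDCA8 fell, where 8.27% were called lower. No member passed with a fold change over 2 (2.14% of all tested genes), and 16 of the 53 members had an unadjusted p under 0.05, against 32.1% of all tested genes. Among the 9935 tested genes with a mean level in the members' own range, 9.78 to 672 CPM (counts scaled to a common library total), 21.5% passed.

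The differences were small and could be measured closely. The log2 fold changes ran from -0.34 to 0.48, with a median of 0.07 for members and -0.00 for all tested genes. The median standard error was 0.0811. The 95% interval of the difference lay within a 2-fold change in either direction for all 53 members, and within 1.5-fold for 50 of them, the exceptions being UBE2S, ANLN and CENPA. The members' share of all counts was 0.617% to 0.660% in control libraries and 0.673% to 0.717% in silenced libraries, and these ranges did not overlap. Their summed level was 6436 ± 141 CPM in control and 6861 ± 140 CPM in silenced libraries (SD, n = 3 each), 107% of control. Without the 3 most counted members, MKI67, MYBL2 and CENPF, the sums were 5012 ± 107 and 5160 ± 169 CPM, 103% of control. The SD ranges of these smaller sums overlapped. No test was run on the shares or the sums.

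In direction, 32 members had a positive log2 fold change and 21 a negative one. Of all tested genes, 7611 were positive and 7639 negative. The other mitotic genes (65 and 42) and the DNA replication and G1/S genes (33 and 21) leaned the same way as the members. Where libraries were scaled by their totals alone, 41 members were positive and 12 negative. ANLN, MYBL2 and CENPF still passed under that scaling, and PLK1 and CDCA8 did not. That scaling moved the median of all tested genes to 0.03 and that of the members to 0.11.

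**Figure D2:**
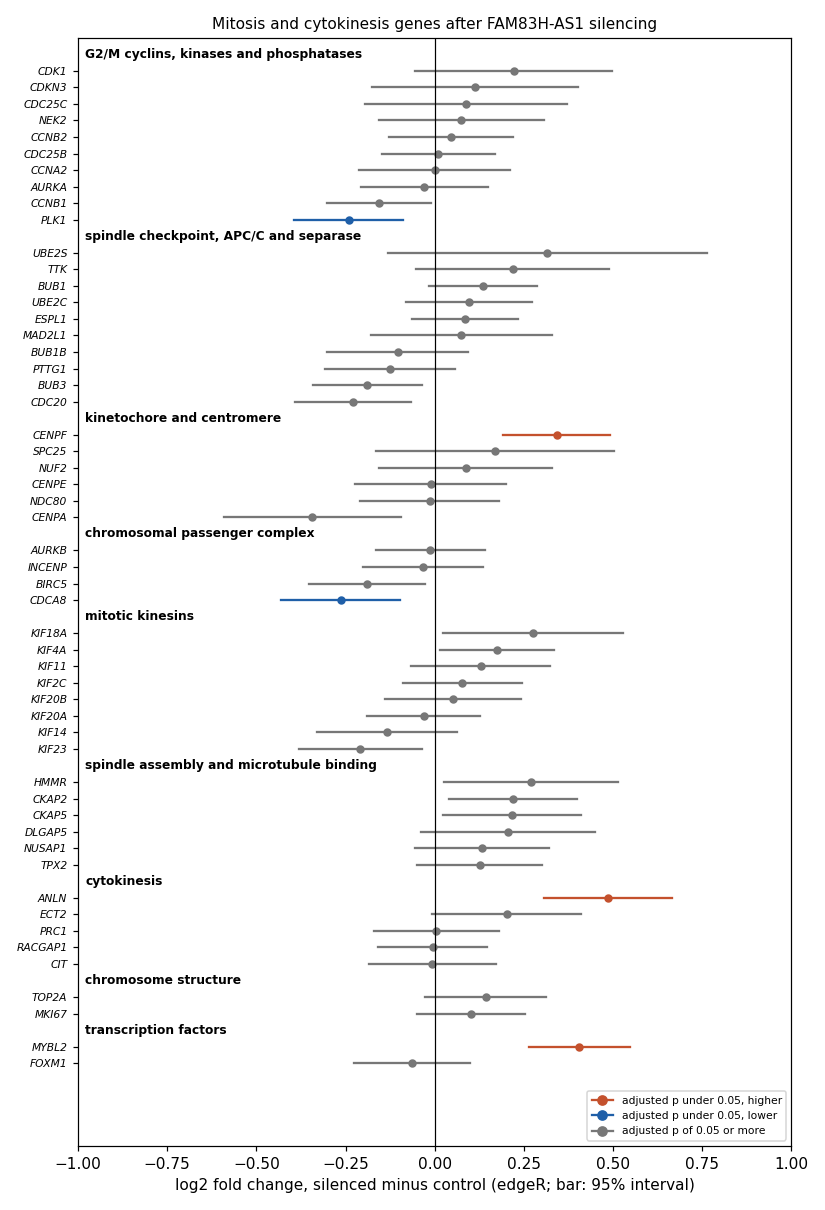
Log2 fold change (silenced minus control) of each of the 53 members by role, with points for edgeR estimates and bars for 95% intervals, n = 3 libraries a group. ANLN, MYBL2 and CENPF are marked as higher and PLK1 and CDCA8 as lower, and no interval reaches a log2 change of 1 or -1.

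Of the 10 cyclins, kinases and phosphatases that drive entry into mitosis, 1 fell and none rose. PLK1 (16: 23677656 to 23690367, plus strand, GRCh38), the polo-like kinase that acts from mitotic entry to cytokinesis, measured 204, 188 and 184 CPM in control and 166, 159 and 163 CPM in silenced libraries. All 3 silenced values were under the lowest control value. The mean of PLK1 fell from 192 ± 10.5 CPM (SD, n = 3) to 162 ± 3.33 CPM (n = 3), with a log2 change of -0.24 ± 0.0699 (SE; 95% interval -0.39 to -0.09; adjusted p = 0.0371, edgeR). PLK1 shares 553 exon bases with the antisense gene AC008870.3 and 42 with ERN2, both on the opposite strand. AC008870.3 is not among the counted genes, and ERN2 had 2 counts in the 6 libraries against 12883 for PLK1. With 1 library left out, the log2 change of PLK1 ran from -0.27 to -0.20, and the adjusted p by edgeR was 0.103 without control replicate 1, 0.0712 without control replicate 2, and 0.105, 0.0878 and 0.0835 without silenced replicates 1, 2 and 3.

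CCNB1, the cyclin B that switches on CDK1, measured 153, 161 and 156 CPM in control and 140, 142 and 140 CPM in silenced libraries. These groups did not overlap, but CCNB1 did not pass (log2 change -0.16, adjusted p = 0.127, edgeR). CDK1, the catalytic partner, varied more, with 77.1, 96.6 and 78.5 CPM in control and 93.3, 117 and 83.8 CPM in silenced libraries. The CDK1 groups overlapped (log2 change 0.22, 95% interval -0.06 to 0.50, adjusted p = 0.256, edgeR). AURKA, the kinase of the spindle poles, was nearly level at 109 ± 8.38 and 106 ± 5.46 CPM (log2 change -0.03, 95% interval -0.21 to 0.15). The cyclin and its kinase thus had estimates of opposite sign, and neither passed.

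The spindle checkpoint holds anaphase back until all kinetochores are attached, and the APC/C with its activator CDC20 then releases it. None of these 10 genes passed, and their median log2 fold change was 0.08. CDC20 measured 150, 153 and 160 CPM in control and 132, 123 and 139 CPM in silenced libraries. All 3 silenced values lay below the control values, and the adjusted p by edgeR just missed the threshold (log2 change -0.23, adjusted p = 0.0546). It passed by DESeq2, with an adjusted p of 0.0402. The checkpoint kinase BUB1 lay higher in all 3 silenced libraries, at 127 ± 3.43 against 116 ± 3.87 CPM (log2 change 0.13, adjusted p = 0.207, edgeR). MAD2L1, which binds and restrains CDC20, had a log2 change of 0.07 (adjusted p = 0.697, edgeR), and PTTG1, the securin that restrains separase, had -0.13 (adjusted p = 0.326, edgeR). Both overlapped between the groups. UBE2S, an E2 enzyme of the APC/C, had the widest interval of all members, and its value is uncertain because its processed pseudogene UBE2SP1 carried 5746 counts in the 6 libraries against 2610 for UBE2S. CDC20 has a listed pseudogene too, CDC20P1, with 1128 counts against 10505.

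At the kinetochore, the protein platform that ties chromosomes to microtubules, 1 of 6 genes rose. CENPF (1: 214603195 to 214664588, plus strand, GRCh38), a large coiled-coil protein of the outer kinetochore, measured 365, 393 and 361 CPM in control and 491, 455 and 472 CPM in silenced libraries. Every silenced library lay above every control library. CENPF rose from 373 ± 17.2 to 473 ± 17.9 CPM, a log2 change of 0.34 ± 0.0681 (SE; 95% interval 0.19 to 0.49; adjusted p = 0.00766, edgeR). CENPA (2: 26764289 to 26801067, plus strand, GRCh38), the histone H3 variant that marks the centromere, had the lowest estimate of all members. It measured 17.6, 15.6 and 15.4 CPM in control and 12.3, 12.5 and 13.4 CPM in silenced libraries. The groups did not overlap, and CENPA missed the threshold (log2 change -0.34 ± 0.113 SE, adjusted p = 0.0594, edgeR). CENPA shares 138 exon bases with SLC35F6 on the same strand. SLC35F6 carried 4422 counts in the 6 libraries against 1054 for CENPA, and its effect on the CENPA value was not tested. NDC80, which grips the microtubule, had a log2 change of -0.01 (95% interval -0.21 to 0.18).

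**Figure D3:**
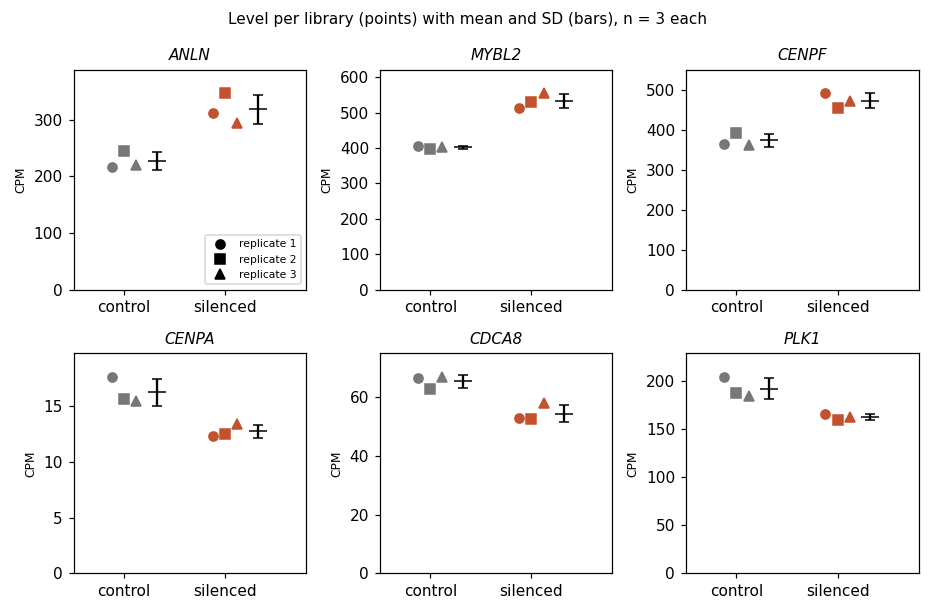
Level in CPM of ANLN, MYBL2, CENPF, CENPA, CDCA8 and PLK1 in each library, with symbols for replicate numbers and bars for the mean and SD, n = 3 a group. In all 6 panels the 3 silenced libraries lie on one side of the 3 control libraries. CENPA did not pass the test.

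The chromosomal passenger complex, which corrects wrong attachments and later guides the division plane, comprised 4 genes with negative estimates in all of them (median -0.11), of which 1 fell. CDCA8 (1: 37692418 to 37709719, plus strand, GRCh38), which encodes its targeting subunit borealin, measured 66.3, 62.9 and 66.8 CPM in control and 52.7, 52.6 and 57.8 CPM in silenced libraries. The highest silenced value was under the lowest control value. CDCA8 fell from 65.3 ± 2.14 to 54.4 ± 2.98 CPM, a log2 change of -0.26 ± 0.0758 (SE; 95% interval -0.43 to -0.10; adjusted p = 0.0362, edgeR). With 1 library left out, the log2 change of CDCA8 ran from -0.31 to -0.24. Its adjusted p by edgeR was 0.0805, 0.0553 and 0.101 without control replicates 1, 2 and 3, 0.134 and 0.0890 without silenced replicates 1 and 2, and 0.0635 with all libraries thinned to the smallest. BIRC5, the survivin subunit, measured 151, 140 and 133 CPM in control and 122, 122 and 127 CPM in silenced libraries. These groups did not overlap either, and BIRC5 did not pass (log2 change -0.19, adjusted p = 0.103, edgeR). The kinase of the complex, AURKB, was at 88.6 ± 2.97 and 87.9 ± 0.206 CPM (log2 change -0.01, 95% interval -0.17 to 0.14). Whether CDCA8 and AURKB differed from each other in their change was not tested.

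None of the 8 mitotic kinesins passed (median 0.06). KIF11, the motor that pushes the spindle poles apart, had a log2 change of 0.13 (adjusted p = 0.348, edgeR). KIF23, the motor of the central spindle, measured 87.9, 95.7 and 101 CPM in control and 81.9, 85.5 and 78.9 CPM in silenced libraries. The KIF23 groups did not overlap, and it did not pass (log2 change -0.21, adjusted p = 0.0924, edgeR). The 6 spindle assembly and microtubule binding genes all had positive estimates, between 0.13 and 0.27, and none of them passed. TPX2, which activates AURKA on the spindle, was at 261 ± 9.40 and 285 ± 27.2 CPM (log2 change 0.13, adjusted p = 0.304, edgeR).

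Among 5 cytokinesis genes, 1 rose and it was the member with the largest estimate. ANLN (7: 36389806 to 36453791, plus strand, GRCh38) encodes anillin, the scaffold that joins actin, myosin and septins in the contractile ring. It measured 216, 245 and 220 CPM in control and 312, 346 and 295 CPM in silenced libraries. The lowest silenced library lay well above the highest control library. ANLN rose from 227 ± 15.4 to 318 ± 26.3 CPM, a log2 change of 0.48 ± 0.0816 (SE; 95% interval 0.31 to 0.66; adjusted p = 0.00331, edgeR), which is 1.40-fold. ANLN shares 78 exon bases with KIAA0895 on the opposite strand, and whether the counting used strand is not given in the sources used here. KIAA0895 carried 2274 counts in the 6 libraries against 19566 for ANLN. ECT2, the exchange factor that activates RhoA at the ring, had 46.1, 48.5 and 47.2 CPM in control and 57.9, 58.7 and 46.8 CPM in silenced libraries. The third silenced library lay among the control libraries, and ECT2 did not pass (log2 change 0.20, adjusted p = 0.169, edgeR).

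The proliferation marker MKI67, which coats mitotic chromosomes, was the most counted member. It measured 610, 653 and 682 CPM in control and 712, 682 and 694 CPM in silenced libraries. The MKI67 groups overlapped near 682 CPM, and the gene did not pass (log2 change 0.10, 95% interval -0.05 to 0.25, adjusted p = 0.338, edgeR). TOP2A, the topoisomerase that disentangles sister chromatids, was at 372 ± 23.1 CPM in silenced against 336 ± 24.1 CPM in control libraries (log2 change 0.14, adjusted p = 0.231, edgeR). The TOP2A groups only just did not overlap, with 354.6 CPM in control replicate 2 and 354.7 CPM in silenced replicate 1.

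Of the 2 transcription factors, 1 rose. MYBL2 (20: 43667019 to 43716496, plus strand, GRCh38) encodes B-Myb, which joins the MuvB complex in S phase. It measured 407, 397 and 402 CPM in control and 513, 531 and 555 CPM in silenced libraries. The control libraries were within a narrow band and all silenced libraries lay above it. MYBL2 rose from 402 ± 4.80 to 533 ± 21.0 CPM, a log2 change of 0.41 ± 0.0648 (SE; 95% interval 0.26 to 0.55; adjusted p = 0.00252, edgeR). FOXM1, which takes over at the same promoters in G2, was at 191 ± 12.9 and 183 ± 6.17 CPM (log2 change -0.06, 95% interval -0.23 to 0.10). FOXM1 shares 781 exon bases with ITFG2 on the opposite strand, which carried 899 counts in the 6 libraries against 13534 for FOXM1. ANLN, MYBL2 and CENPF kept an adjusted p under 0.05 in all 13 alternative analyses, PLK1 in 7 and CDCA8 in 6.

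The silenced and control libraries did not overlap for 17 members (32.1%), against 36.6% of all tested genes. For 9 the silenced libraries lay above (19.1% of all tested genes), namely BUB1, ESPL1, CENPF, KIF4A, CKAP2, CKAP5, ANLN, TOP2A and MYBL2. For 8 they lay below (17.5% of all tested genes), namely CCNB1, PLK1, BUB3, CDC20, CENPA, BIRC5, CDCA8 and KIF23. For 1 gene without overlap, the exact permutation test of 3 against 3 libraries gives a two-sided p of 0.1, the smallest it can give.

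**Figure D4:**
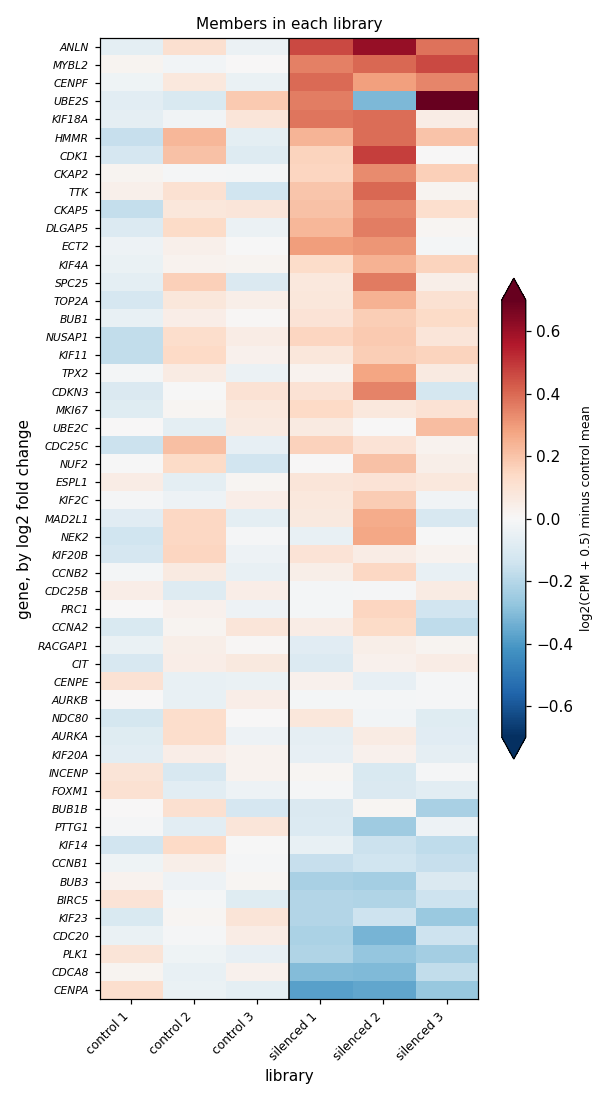
Level of each member, as log2(CPM + 0.5), in each of the 6 libraries minus its mean over the control libraries, ordered by log2 fold change, with colours limited at the ends of the scale (UBE2S in silenced replicate 3 lies beyond them). The upper and lower rows have opposite signs in the silenced libraries because of the ordering, and silenced replicate 2 has the most rows above the control mean (36 of 53).

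The members also differed between libraries of 1 group. Silenced replicate 2 was the highest of the silenced libraries for 31 members (58.5%, against 38.1% of all tested genes), and silenced replicate 3 the lowest for 26 (49.1%, against 32.9%). Among controls, replicate 2 was the highest for 28 members (52.8%, against 31.8% of all tested genes) and replicate 1 the lowest for 28 (52.8%, against 37.5%). Relative to the control mean, the median member stood at 0.06, 0.10 and 0.00 on the log2 scale in silenced replicates 1, 2 and 3. Without silenced replicate 2 the median log2 fold change of the members was 0.02.

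**Figure D5:**
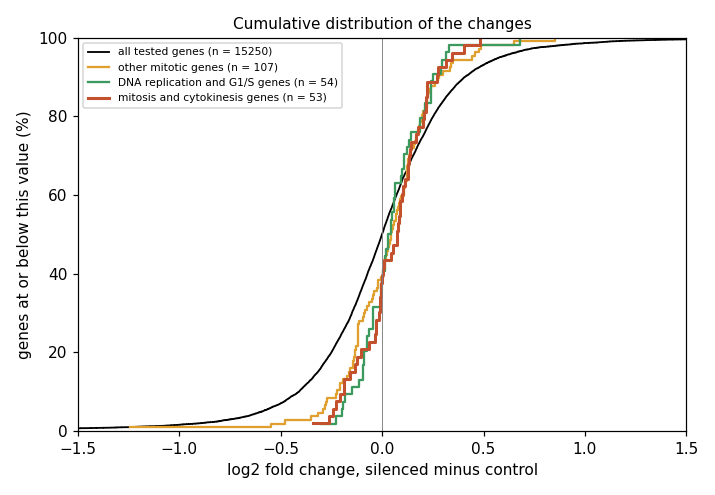
Cumulative share of genes (percent) at or below each log2 fold change, for the 53 members, the other mitotic genes, the DNA replication and G1/S genes, and all tested genes. The member curve is steeper than that of all tested genes, with a median absolute log2 fold change of 0.13 against 0.20, and against 0.17 for tested genes in the members' range of CPM. It was 0.13 for the other mitotic genes and 0.10 for the DNA replication and G1/S genes.

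Levels between members can be compared only per transcript length, here as control CPM per kilobase of the longest coding transcript in GENCODE 29. MYBL2 stood highest at 149 ± 1.78 CPM per kilobase, followed by UBE2C (99.3 ± 4.48), CDC20 (86.9 ± 3.03) and PLK1 (86.3 ± 4.72), and these last 2 did not differ beyond their spread. CENPE, the long kinetochore motor, stood lowest at 2.57 ± 0.165, below MAD2L1 (4.83 ± 0.443) and TTK (5.10 ± 0.456), which did not differ beyond their spread. The longest transcript was taken whether or not these cells use it (5468 bases for MAD2L1). The ranks depend on that choice, which the SDs do not cover. Among the members with a promoter window, those that held the CHR letters had a median log2 fold change of 0.09 (n = 34, from -0.34 to 0.48), and those without had 0.00 (n = 11, from -0.16 to 0.41). The members that rose or fell were on both sides, with 4 among the former and MYBL2 among the latter.

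Genes of the same process outside the members were counted in the same way. Of 107 other mitotic genes tested, 9 rose and 8 fell (15.9%, close to the 17% of all tested genes), with a median log2 fold change of 0.04. This count was 6 without silenced replicate 1, 8 without control replicate 1, and 10 without control replicate 2 or 3. ANAPC11, the RING subunit of the APC/C, alone passed with a fold change over 2. It measured 91.5, 70.9 and 79.9 CPM in control and 33.1, 24.0 and 44.5 CPM in silenced libraries. All silenced libraries lay far below the control libraries, and ANAPC11 fell by 1.24 on the log2 scale (SE 0.176, adjusted p = 0.00135, edgeR). It shares 62 exon bases with ALYREF and 27 with PCYT2 on the opposite strand. These carried 8817 and 6703 counts in the 6 libraries against 4258 for ANAPC11, and their effect on its value was not tested.

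WEE1, the kinase that holds CDK1 inactive, measured 29.2, 33.7 and 36.8 CPM in control and 49.4, 57.0 and 50.8 CPM in silenced libraries. It lay above control in all 3 and rose by 0.65 on the log2 scale (SE 0.0999, adjusted p = 0.00204, edgeR). The phosphatases CDC14A and CDC14B rose by 0.85 and 0.48 (adjusted p = 0.0325 and 0.00613, edgeR). CDC14B shares 1096 exon bases with HABP4 on the opposite strand, which carried 1123 counts in the 6 libraries against 1750 for CDC14B, so its value is uncertain. CDC14A had only 29 to 78 counts a library, and its adjusted p by edgeR was 0.0775 and 0.0881 without control replicate 1 or 3 and 0.0868 and 0.117 without silenced replicate 1 or 2. ZW10, which recruits dynein to kinetochores, and DEPDC1 had log2 changes of -0.48 and -0.55 (adjusted p = 0.0158 for each, edgeR). Both calls were lost without control replicate 2 (adjusted p = 0.0637 and 0.0632) or silenced replicate 1 (0.0744 and 0.0731, edgeR).

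Of 54 DNA replication and G1/S genes tested, 5 rose and 1 fell (11.1%, against 17% of all tested genes), with a median log2 fold change of 0.04. E2F2, a transcription factor of S phase entry, measured 41.1, 42.1 and 43.8 CPM in control and 69.0, 67.9 and 66.7 CPM in silenced libraries. Each group was tight and the groups lay far apart (log2 change 0.68, SE 0.0720, adjusted p = 2.52e-04, edgeR). The related E2F1 rose by 0.30 (adjusted p = 0.0291, edgeR), RRM1, the large subunit of ribonucleotide reductase, by 0.33 (0.0478, and 0.19 with an adjusted p of 0.133 without silenced replicate 2), the helicase loader MCM10 by 0.29 (0.0248), and thymidine kinase TK1 by 0.25 (0.0441). DNA ligase LIG1 fell from 76.1 ± 1.53 to 61.6 ± 2.52 CPM (log2 change -0.30, adjusted p = 0.0169, edgeR). Of these 6 genes, E2F2 alone passed in every analysis that left out 1 library, and the count was 1 without silenced replicate 1 and 3 without control replicate 2, control replicate 3 or silenced replicate 3.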

How the data were processed

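RNA-Seq libraries of 3 silenced and 3 control samples were analysed from the deposited table of raw read counts per gene. The authors aligned reads from an Ion Proton kit with MapSplice and counted mapped reads per gene. The build was GRCh37 per the submitters' processing notes, and the strand setting and gene annotation are not given in the sources used here. All 6 value columns were used as deposited, and the columns of the whole table were matched to samples by name.

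Genes were filtered with filterByExpr, scaled by TMM and tested with the quasi-likelihood test of edgeR 4.0.16 in R 4.3.3, with Benjamini-Hochberg adjustment over 15250 genes. CPM values use the TMM-scaled totals. Intervals are the estimate with its SE and a t quantile on 11.2 degrees of freedom. DESeq2 1.42.0 was an alternative, as were RLE factors, library size alone, no filter, messenger RNA only, thinning to 9738291 counts, a replicate block, and leaving out each library. The fit was tested on simulated data. Replicates differed by more than sampling noise (chi-square per degree of freedom 3.92 to 26.8). Members had at least 85 counts in each library. Each SE was taken from the estimate and the F statistic of its own gene, which takes in the spread between libraries. The common dispersion over all tested genes was 0.0108.

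The members and gene lists were chosen with earlier results of these data known. Named genes were every member that passed, fixed representatives of each role, the members with the highest and lowest change, up to 6 passing genes of each other list, and FAM83H-AS1. Other members are named where a count or interval is spelled out, chosen after their values were seen. Gene positions and overlaps came from GENCODE 29 (GRCh38) and promoter windows from RefSeq (GRCh38.p14). No coordinates were converted. PRIM2, on the replication list, was not analysed here, and CENPC was looked up under that symbol after the table was seen.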

Additional observations from a re-analysis of the deposited data

How the results depend on the processing

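Under the 14 settings tried, the count of members past the threshold (5) was 3 at an adjusted p under 0.01 and 3 with library size alone, and it ran from 3 to 6 with 1 library left out. The median log2 fold change of the members ran from 0.0194 to 0.0885 with 1 library left out. The other mitotic genes numbered 4 at an adjusted p under 0.01 and 6 to 13 with 1 library left out. The DNA replication and G1/S genes numbered 1 at an adjusted p under 0.01 and 1 to 4 with 1 library left out. No member passed with a fold change over 2 in any setting. Fits with 1 library left out rest on fewer samples, and the causes were otherwise not tested.

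Of the log2 fold changes of named genes, 4 near 0 changed sign. With library size alone, AURKA was 0.00492, AURKB 0.0236 and NDC80 0.0217, and NDC80 was 0.000471 when thinned. With 1 library left out, AURKA ran from -0.0732 to 0.0327, AURKB from -0.0383 to 0.0106, MAD2L1 from -0.0272 to 0.167 and NDC80 from -0.0722 to 0.0464.

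The labels number the replicates of both groups alike. Deviations of same-numbered libraries correlated at 0.115, 0.134 and 0.0649, and those of other pairs at -0.0969 to 0.00898. The main fit did not take the numbers as pairs, but each library correlated best with its own number. These values do not exclude pairing. With a replicate block 7 members passed, the same 5 and CDC20 and HMMR. The adjusted p of CDK1 by edgeR was then 0.0506, and 9 DNA replication and G1/S genes passed, against 6 in the main fit. The lowest count of a member in any library was 85. With all libraries thinned to the smallest, 4 members passed, and CDCA8 was lost. How far depth limits the other members was not tested.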

Other observations

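The word CCAATAA in 3′ untranslated regions was noticed earlier in these data and supports nothing here. It was held by 6 of the 53 members (11.3%), CDK1, MAD2L1, BIRC5, KIF23, ECT2 and MKI67, and by 12.7% of the 11550 tested genes with such a region. The median log2 fold change was 0.09 in the 6 members with the word and 0.07 in the 47 without. Over all tested genes it was -0.08 with the word and 0.01 without. None of the 5 members that passed by edgeR held it. Of the named genes of the other lists, ANAPC11 and ZW10, which fell, held it. DEPDC1 and LIG1, which fell too, did not, nor did the named genes of those lists that rose.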
